A study of Arabidopsis thaliana with 8 samples.

Results

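The genes described here are PORA (AT5G54190), PORB (AT4G27440) and PORC (AT1G03630), which encode the light-dependent NADPH:protochlorophyllide oxidoreductases (POR) of Arabidopsis thaliana. They were taken by gene code, and these 3 genes are among 27416 gene models listed for every library. All 3 had enough reads to be tested, as had 20716 genes in all. POR enzymes reduce protochlorophyllide to chlorophyllide, the step of chlorophyll synthesis that needs light in flowering plants. In dark-grown seedlings the enzyme, its pigment substrate and NADPH are stored together in the prolamellar body of the etioplast, so that the first light is used at once and free protochlorophyllide does not cause photooxidative damage. PORA is known as the form of etiolated tissue, PORB as a form present in both etiolated and green tissue, and PORC as a form of light-exposed, green tissue.

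Etiolated seedlings of the Col ecotype, 4.5 days old, were sampled by RNA sequencing in 4 groups of 2 libraries each. Seeds on medium with 1% sucrose were cold-treated for 3 days, given 12 h of white light and another 21 h for germination, and then kept dark for 4 days at 22 °C. Wild-type (WT) seedlings that stayed in darkness form the group WT dark. WT seedlings given 1 h of red light at a fluence rate of 50 µmol form WT red, and phyB and phyAB mutants given the same light form phyB red and phyAB red. PHYB is the main red light receptor of light-grown plants, PHYA is abundant in etiolated tissue and degraded in light, and the phyAB genotype by its name affects both. Mutant alleles are not described in the labels, dark mutant seedlings are not analysed here, and a difference between genotypes under red light can therefore not be told apart from a difference that was already there in the dark. Whole seedlings were used, so a change in RNA per cell and a change in the share of a cell type cannot be told apart either. The labels do not say that the 2 libraries of a group came from separate cultures, and p-values measure only the spread between these samples. That spread was small, with a common biological coefficient of variation (variation beyond counting error) of 1.59%, and very small p-values are to be read with it.

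Between 15926547 and 22116924 reads per library fell on gene models. PHYA transcript stood at 834 and 828 CPM (counts scaled to library size by TMM) in WT dark, 463 and 471 CPM for WT red, 703 and 703 CPM for phyB red, and 124 and 123 CPM for phyAB red. PHYB transcript stood at 96.0 and 95.2 CPM for WT red, 62.3 and 64.3 CPM for phyB red, and 52.9 and 50.4 CPM for phyAB red. Both genes were lower in the genotypes named for them, although reads of both remained. All 8 root marker genes had reads in every group, with a summed level of 15211 to 15215 CPM for WT dark, 18812 to 18816 CPM for WT red, 12100 to 12135 CPM for phyB red and 17684 to 17773 CPM for phyAB red. All 4 markers of shoot epidermis and the stomatal lineage had reads too. Their sums were 306 to 311, 493 to 508, 607 to 609 and 456 to 469 CPM in the same order. The sums of marker genes, here and below, were scaled to total reads only, without TMM, unlike the CPM of single genes. Most of the root sum came from PYK10, at 13647 and 13653 CPM for WT dark and 18238 and 18231 CPM for WT red. TIP2-3, another root marker, went the other way, from 1348 and 1354 CPM to 759 and 761 CPM. Of the 8 root markers, 1 was called higher and 3 lower in WT red. PDF1 gave most of the shoot sum, at 242 CPM in both WT dark libraries. The sums therefore do not measure the share of a tissue.

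PORA and PORB are close copies at the sequence level, which matters for how reads can be assigned. Over the coding sequence of the RefSeq transcripts (assembly TAIR10.1), PORA and PORB were identical at 83.3% of aligned bases, PORA and PORC at 73.9%, and PORB and PORC at 73.5%. The longest identical coding run of PORA and PORB was 44 bases and lies at the start codon, whereas the longest run shared with PORC was 18 bases for PORA and 20 bases for PORB. The first 54 coding bases are shown for this reason, 5′ to 3′, with capitals for bases identical between PORA and PORB and PORC left in lower case. They lie at chr5:21992720-21992773 on the minus strand for PORA, chr4:13725648-13725701 on the plus strand for PORB and chr1:907699-907752 on the plus strand for PORC.
PORA: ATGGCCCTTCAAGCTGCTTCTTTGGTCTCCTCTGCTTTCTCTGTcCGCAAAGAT
PORB: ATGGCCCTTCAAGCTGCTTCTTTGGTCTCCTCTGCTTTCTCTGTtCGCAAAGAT
PORC: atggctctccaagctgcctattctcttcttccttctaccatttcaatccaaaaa
PORA and PORB were identical at 53 of these 54 bases. Of all 36-base words in the PORA transcripts, 0.825% also occurred in PORB, and of all 50-base words 0 occurred in another gene. A read from the start of the coding sequence could thus fit both genes if it was short, and neither the read length nor how such reads were handled is stated in the sources. No 25-base word of PORC occurred in another gene.

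PORA covers chr5:21990864-21992814 on the minus strand and overlaps no annotated gene. PORB covers chr4:13725546-13727440 on the plus strand, and its 3′ end overlaps AT4G27450 on the opposite strand by 71 bases. PORC covers chr1:907523-909650 on the plus strand, and its 5′ end overlaps AT1G03620 on the opposite strand by 121 bases. Without a statement on strand, reads in these overlaps cannot be told apart.

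PORA, the form of etiolated tissue, had the widest range of the 3 genes. The deposited length-scaled level was 93.0 and 97.4 RPKM for WT dark, 12.4 and 14.4 RPKM for WT red, 11.7 and 12.0 RPKM for phyB red, and 269.4 and 269.1 RPKM for phyAB red. Both phyAB libraries were thus the highest, both dark libraries came next, and the WT red and phyB red libraries lay close together at the bottom without overlapping. The group means were 269.3 ± 0.228 (SD, n = 2) RPKM for phyAB red, 95.2 ± 3.13 for WT dark, 13.4 ± 1.42 for WT red and 11.9 ± 0.187 for phyB red. In this order, WT red and phyB red did not differ beyond the test's threshold (adjusted p = 0.0735, edgeR), and the other neighbours differed. These levels rest on 8425 and 6445 reads in phyAB red and on as few as 269 reads in a phyB red library.

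PORB, the form of both etiolated and green tissue, was the POR transcript with the highest level in every library. It stood at 123.6 and 121.4 RPKM for WT dark, 83.3 and 85.6 RPKM for WT red, 120.8 and 117.8 RPKM for phyB red, and 287.6 and 286.0 RPKM for phyAB red. The phyAB libraries were again the highest and the WT red libraries the lowest, with WT dark and phyB red between them. Means were 286.8 ± 1.14 (SD, n = 2) RPKM for phyAB red, 122.5 ± 1.54 for WT dark, 119.3 ± 2.14 for phyB red and 84.5 ± 1.64 for WT red. WT dark and phyB red are neighbours that did not differ past the threshold (adjusted p = 0.148, edgeR).

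PORC, the form of green tissue, had the lowest level of the 3 in the dark and in phyAB red. Its RPKM was 5.05 and 5.14 for WT dark, 22.7 and 22.1 for WT red, 22.8 and 22.4 for phyB red, and 20.7 and 20.6 for phyAB red. The dark libraries stood apart below all 6 red-treated libraries, WT red and phyB red overlapped, and phyAB red lay just under both. Means were 22.6 ± 0.277 (SD, n = 2) RPKM for phyB red, 22.4 ± 0.447 for WT red, 20.6 ± 0.0749 for phyAB red and 5.09 ± 0.0641 for WT dark. Among neighbours in this order, phyB red and WT red did not differ past the threshold (adjusted p = 0.820, edgeR), WT red and phyAB red differed by a small amount that passed it (adjusted p = 0.0295), and phyAB red and WT dark differed (adjusted p = 3.56e-33). The dark level rests on 141 and 134 reads.

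**Figure D1:**
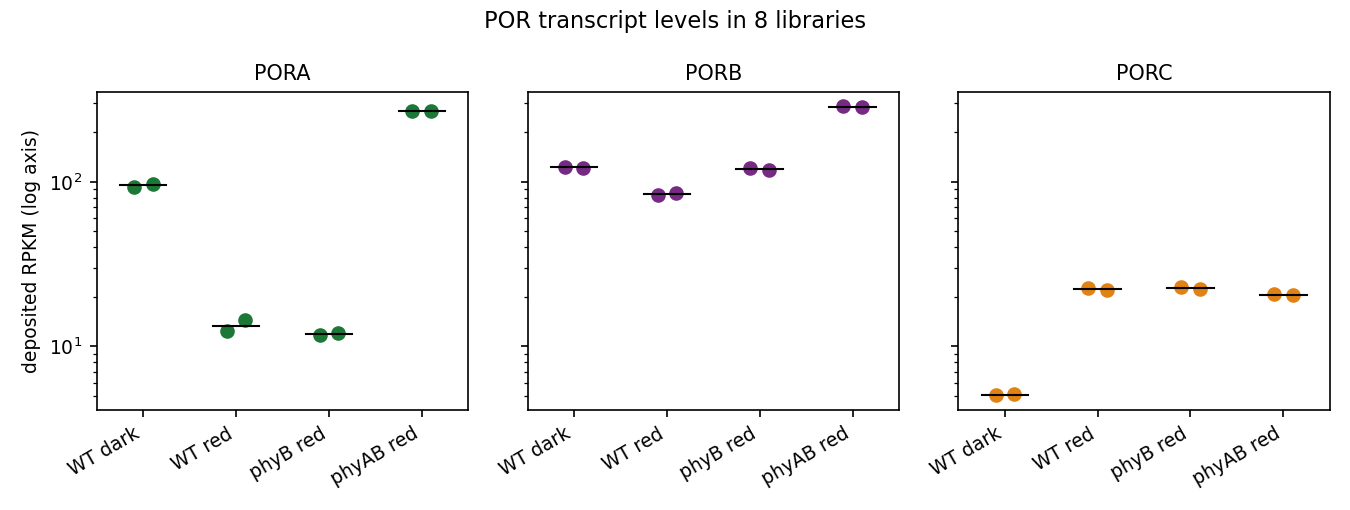
Deposited RPKM (log axis) of PORA, PORB and PORC in the 8 libraries, with a point per library and a bar at the mean of each group of 2. PORA spans 11.7 to 269.4 RPKM and PORB 83.3 to 287.6 RPKM, both highest in phyAB red, whereas PORC is lowest in WT dark at 5.05 and 5.14 RPKM.

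Set beside all 27416 gene models of a library, PORA was among the most abundant in phyAB red (ranks 303 and 311 by RPKM) and in the middle range in WT red (ranks 9371 and 8486). PORB held ranks 282 and 283 for phyAB red and 1452 and 1417 for WT red. PORC rose from ranks 13763 and 13704 for WT dark to 5902 and 6063 for WT red.

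The make-up of the POR transcript pool changed with light and genotype. The RPKM of the 3 genes summed to 222.8 ± 1.66 (SD, n = 2) for WT dark, 120.2 ± 2.61 for WT red, 153.8 ± 2.23 for phyB red and 576.7 ± 1.45 for phyAB red. PORA made up 42.0% and 43.5% of the sum for WT dark, 10.4% and 11.8% for WT red, 7.54% and 7.87% for phyB red, and 46.6% and 46.7% for phyAB red. PORB made up 55.8% and 54.2%, 70.4% and 70.2%, 77.8% and 77.4%, and 49.8% and 49.7% in the same order of groups. The share of PORC was 2.28% and 2.29% for WT dark, 19.2% and 18.1% for WT red, 14.7% in both phyB red libraries, and 3.58% in both phyAB red libraries. By share, phyAB red after red light lay near WT dark for all 3 genes, while its summed level was the highest of the 4 groups.

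**Figure D2:**
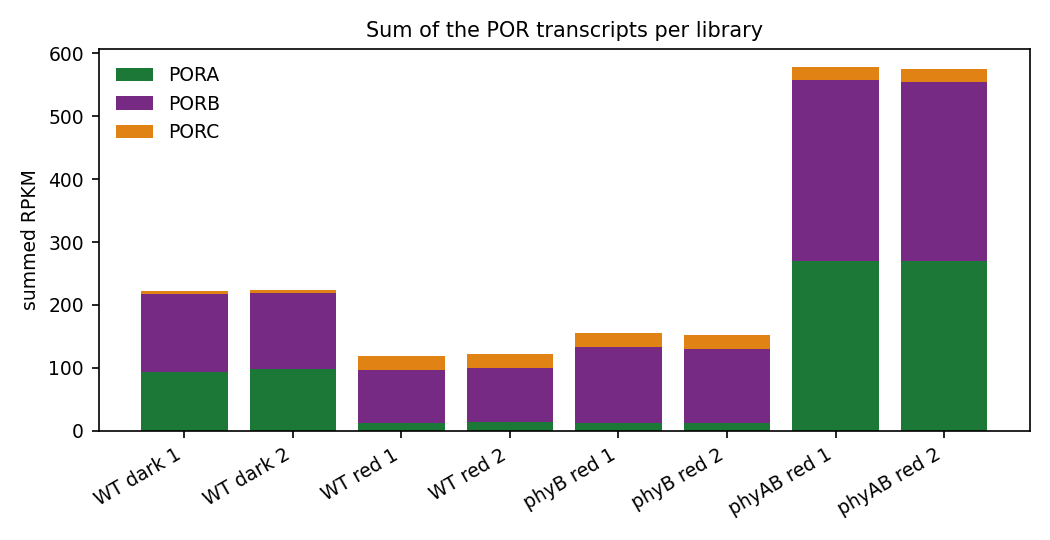
Stacked bars of deposited RPKM of PORA, PORB and PORC in each of the 8 libraries, on an axis that starts at 0. Sums are 576.7 ± 1.45 (SD, n = 2) in phyAB red and 120.2 ± 2.61 for WT red, and PORB is the largest component in every library.

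Ratios of the genes within a library do not depend on how libraries are scaled. The log2 ratio of PORA to PORB was -0.36 ± 0.07 (SD, n = 2) in WT dark, -2.66 ± 0.13 for WT red, -3.33 ± 0.05 for phyB red and -0.09 ± 0.0045 for phyAB red. The log2 ratio of PORA to PORC was 4.22 ± 0.03 for WT dark, -0.75 ± 0.18 for WT red, -0.93 ± 0.04 for phyB red and 3.71 ± 0.004 for phyAB red. PORC therefore exceeded PORA per length in WT red and phyB red, and PORA exceeded PORC in the other groups. For all 3 ratios the groups compared did not overlap, and each exact permutation test (two-sided) gave p = 0.333, the smallest value that 2 libraries against 2 can give.

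Setting WT red against WT dark asks what 1 h of red light did in the wild type. PORA and PORB fell and PORC rose, beside 22.7% of all tested genes called lower (adjusted p under 0.05), 24.1% called higher and so 46.8% called in either direction. PORA went from 134.6 and 141.1 CPM to 18.2 and 21.2 CPM, a log2 fold change of -2.81 ± 0.06 (SE, adjusted p = 2.76e-60, edgeR's quasi-likelihood test with Benjamini-Hochberg adjustment), or 7.03-fold lower. This placed PORA at rank 42 from the lowest of 20716 tested genes. PORB went from 192.9 and 189.6 CPM to 132.6 and 136.2 CPM, a change of -0.51 ± 0.04 on the log2 scale (adjusted p = 1.31e-22). PORC went from 7.06 and 7.20 CPM to 32.4 and 31.5 CPM, a change of 2.16 ± 0.09 (adjusted p = 3.78e-36) or 4.48-fold. Each difference was larger than the spread between the 2 libraries of a group. The SE is derived from the F statistic of the model, and for PORA it (0.0555) is below the SE that counting error alone would give (0.0584), so it is a lower limit of the error. The same held for PORA in phyAB red vs WT red (0.0469 against 0.0562), phyAB red vs phyB red (0.0472 against 0.0578) and phyB red vs WT dark (0.0560 against 0.0599). For PORC it held in WT red (0.0917 against 0.0970), phyB red (0.0911 against 0.0965) and phyAB red (0.0925 against 0.0972), each relative to WT dark. Of 4 shoot epidermis and stomatal markers all 4 were higher in WT red, and of 8 root markers 1 was higher and 3 lower, and their part in the POR changes was not tested.

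Setting phyB red against WT red compares the 2 genotypes under red light and, without dark mutants, does not measure the light response of phyB. PORB was the POR gene that differed, at 186.5 and 182.0 CPM for phyB red against 132.6 and 136.2 CPM for WT red, with a log2 fold change of 0.45 ± 0.04 (SE, adjusted p = 4.53e-19, edgeR), beside 13.1% of all tested genes called higher, 14.0% lower and 27.1% in either direction. For PORA, at 16.8 and 17.2 CPM against 18.2 and 21.2 CPM, the change was -0.20 ± 0.09 (adjusted p = 0.0735, unadjusted 95% interval -0.38 to -0.03). Without the first WT red library it was -0.32 (adjusted p = 0.0252), so 1 library decides on which side of the threshold it lies. For PORC, at 31.6 and 31.1 CPM against 32.4 and 31.5 CPM, the change was -0.03 ± 0.07 (adjusted p = 0.820, interval -0.17 to 0.11), and it was 0.0172 with limma on deposited RPKM, so its sign depends on the method. Against WT dark, phyB red had lower PORA (-3.02 ± 0.06, adjusted p = 2.08e-62) and higher PORC (2.14 ± 0.09, adjusted p = 4.83e-36), beside 27.1% of tested genes called lower, 27.4% higher and 54.5% in either direction. PORB in phyB red was at -0.06 ± 0.03 relative to WT dark (adjusted p = 0.148, unadjusted interval -0.12 to 0.0098), and at -0.096 (adjusted p = 0.0386) without the second WT dark library. Relative to WT red, 1 of 8 root markers was higher and 3 lower in phyB red, and 1 of 4 shoot epidermis and stomatal markers was higher and 0 lower, and their part was not tested.

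Setting phyAB red against WT red compares, again under red light only, the wild type with a genotype that by name affects PHYA as well. PORA and PORB were far higher in phyAB red, beside 22.3% of all tested genes called higher and 45.0% in either direction. PORA stood at 380.6 and 379.8 CPM, a log2 fold change of 4.28 ± 0.05 (SE, adjusted p = 1.60e-79, edgeR) or 19.4-fold, which placed it at rank 21 from the highest of 20716. PORB stood at 438.1 and 435.2 CPM, a change of 1.70 ± 0.03 (adjusted p = 3.76e-62) or 3.25-fold. PORC stood at 28.3 and 28.1 CPM, a change of -0.18 ± 0.07 (adjusted p = 0.0295), beside 22.7% of tested genes called lower, and this small call was lost when any 1 of the 4 libraries compared was left out (adjusted p from 0.0586 to 0.172), and with DESeq2 (adjusted p = 0.152). The seed storage genes CRA1, CRC and OLE1 also rose in phyAB red, with a summed level of 52.1 to 52.8 CPM for the 4 seed storage markers against 0.735 to 0.759 CPM for WT red, 1.30 to 1.34 CPM for WT dark and 0.440 to 0.904 CPM for phyB red. These sums, too, were not scaled by TMM. Of 8 root markers, 5 were higher and 1 lower in phyAB red than in WT red. Of 4 shoot epidermis and stomatal markers, 0 were higher and 2 lower. The part of these marker lists in the POR levels was not tested.

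Relative to phyB red, which by name differs from phyAB red in PHYA, phyAB red had 22.3-fold higher PORA (log2 4.48 ± 0.05, adjusted p = 4.13e-81, edgeR) and 2.37-fold higher PORB (1.247 ± 0.03, adjusted p = 1.58e-54), beside 26.0% of tested genes called higher and 50.1% in either direction. The change in PORC was -0.15 ± 0.07 (adjusted p = 0.0615, unadjusted 95% interval -0.29 to -0.01), and it passed the threshold with DESeq2 size factors (adjusted p = 0.0464) and with only these groups fitted (adjusted p = 0.0413). In this comparison 6 of 8 root markers were higher and 0 lower, 0 of 4 shoot epidermis and stomatal markers were higher and 4 lower, and all 3 tested seed storage markers were higher, and their part was not tested.

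Relative to WT dark, phyAB red differed in all 3 POR genes, each being higher, beside 27.2% of tested genes called higher and 48.2% in either direction. PORA was 2.76-fold higher (log2 1.46 ± 0.03, adjusted p = 5.13e-57, edgeR), PORB 2.28-fold (1.19 ± 0.03, adjusted p = 3.64e-53) and PORC 3.95-fold (1.98 ± 0.09, adjusted p = 3.56e-33). PORC thus stood well above the WT dark level in all 3 red-treated groups. PORA was below the WT dark level in WT red and phyB red and above it in phyAB red. The summed seed storage markers stood at 52.1 to 52.8 CPM against 1.30 to 1.34 CPM in this comparison, 2 of 8 root markers were higher and 3 lower, and all 4 shoot epidermis and stomatal markers were higher, and their part was not tested. Comparisons that use the same group share its libraries and are not independent of each other.

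**Figure D3:**
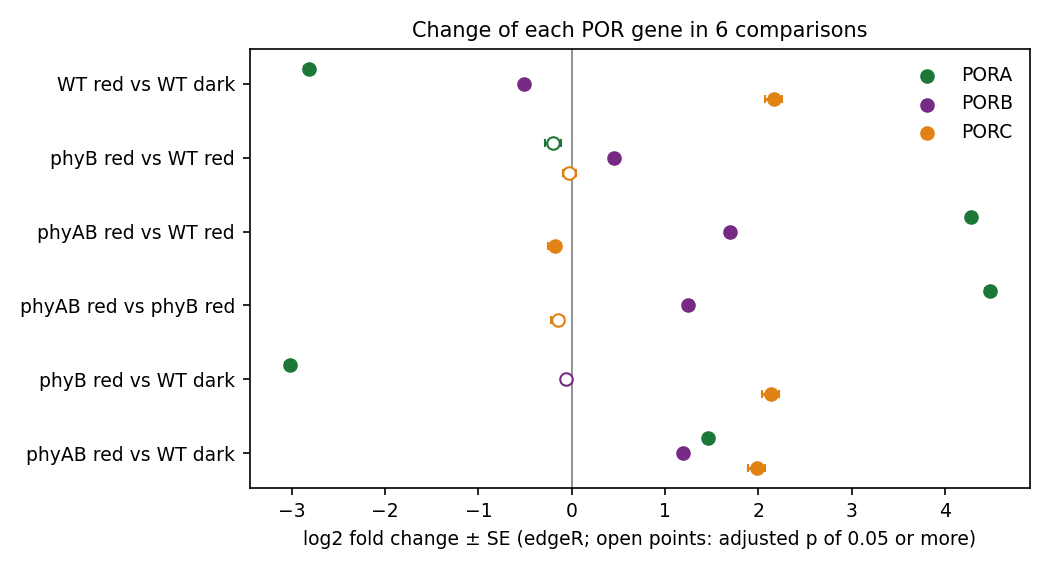
Log2 fold change ± SE of PORA, PORB and PORC in 6 comparisons, from edgeR, with open points where the adjusted p was 0.05 or more. PORA moves from -2.81 in WT red vs WT dark to 4.28 in phyAB red vs WT red, PORB from -0.51 to 1.70, and PORC from 2.16 to -0.18.

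The POR step lies between the magnesium branch of tetrapyrrole synthesis and the last steps of chlorophyll synthesis, and the genes of these steps were measured in the same libraries. Early steps make the tetrapyrrole ring from glutamate. Of 16 genes for these steps and their control, 11 were called higher and 0 lower after red light in the wild type. Their median log2 fold change was 0.63, against 0.0022 over all tested genes. Over all tested genes, 24.1% were called higher and 22.7% lower, and these shares also apply to the lists that follow for WT red against WT dark. HEME1, a uroporphyrinogen decarboxylase gene, changed by 1.88 ± 0.06 and HEMA1, a gene for the glutamyl-tRNA reductase that starts the pathway, by 1.69 ± 0.04. HEMC, for porphobilinogen deaminase, changed by 1.53 ± 0.04 and GSA2, for an aminomutase of the early steps, by 1.43 ± 0.07.

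The magnesium branch supplies the substrate of POR. All 9 of its genes were higher in WT red than in WT dark, with a median log2 fold change of 2.35. GUN4, whose protein stimulates magnesium chelatase, went from 10.7 and 10.6 CPM to 116 and 119 CPM (3.46 ± 0.06). DVR, a vinyl reductase gene, changed by 2.64 ± 0.12, and the chelatase subunit genes CHLH and CHLI1 both changed by 2.54 on the log2 scale. PORC moved in the direction of these genes and PORA and PORB opposite to them.

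Of 5 genes that act after or beside POR in chlorophyll synthesis, 4 rose and 1 fell in WT red, with a median of 1.16. CAO, which makes chlorophyll b, changed by 2.37 ± 0.05, LIL3.1 by 1.77 ± 0.08 and CHLG, for chlorophyll synthase, by 1.16 ± 0.08. LIL3.2, whose protein is related to light-harvesting proteins and is known to bind geranylgeranyl reductase, was the gene that fell. It stood at 173 and 179 CPM for WT dark, 81.3 and 75.5 CPM for WT red, 88.4 and 85.5 CPM for phyB red, and 210 and 209 CPM for phyAB red. LIL3.2 was therefore lowest in the groups where PORA was lowest and highest in the group where PORA was highest, with a log2 fold change of -1.16 ± 0.04 in WT red vs WT dark and 1.41 ± 0.04 in phyAB red vs WT red. Of the heme and chromophore branch, 5 of 7 genes were tested, with 4 called higher and 1 lower after red light. FC2, a ferrochelatase gene, changed by 2.02 ± 0.09, HO2 by 0.77 ± 0.11, HY2, for the last enzyme of phytochrome chromophore synthesis, by 0.64 ± 0.24, and FC1, the other ferrochelatase gene, by 0.43 ± 0.05. The gene that was lower was HO1, for the heme oxygenase that leads to the chromophore, at -0.24 ± 0.03, and it is named here after its value was seen.

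In phyB red against WT red, 9 of the 16 early genes were higher and 1 was lower, 7 of 9 magnesium branch genes were higher and 0 lower, and all 5 later genes were higher. Median log2 fold changes were 0.16, 0.18 and 0.22, against 0.0019 over all tested genes. Of all tested genes, 13.1% were called higher and 14.0% lower in this comparison. The largest of each list were those of HEMB2 (-0.91 ± 0.31, at 1.06 to 2.38 CPM in the 4 libraries), CHLI2 (0.49 ± 0.08) and LIL3.1 (0.30 ± 0.06). PORB, at 0.45, lay toward the upper end of these small rises. Without the first WT red library, 6 early genes were called higher and 0 lower.

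In phyAB red against WT red, 0 of the 16 early genes were higher and 10 lower (1 and 7 with limma on RPKM). All 9 magnesium branch genes were lower. Median log2 fold changes were -0.26 and -0.82 (0.0026 over all tested genes). Of all tested genes, 22.3% were called higher and 22.7% lower in this comparison. Of 5 later genes, 2 were higher and 3 lower (median -0.44), and of 5 tested heme branch genes 1 was higher and 3 lower (median -0.23). GUN4 changed by -1.17 ± 0.04, CHLM, a methyltransferase gene of this branch, by -1.03 ± 0.04, and CHL27, a cyclase gene, by -1.01 ± 0.03. HEMA1 changed by -0.94 ± 0.03 and CAO by -0.94 ± 0.04. PORA at 4.28 and PORB at 1.70 thus lay on the other side of 0 from the magnesium branch. The highest of the listed pathway genes in this comparison was LIL3.2 at 1.41. Against WT dark, 8 of 9 magnesium branch genes were higher in phyAB red and 0 lower (median 1.38), with CHLM at -0.04 ± 0.04 not past the threshold. There, 27.2% of all tested genes were called higher and 21.0% lower.

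**Figure D4:**
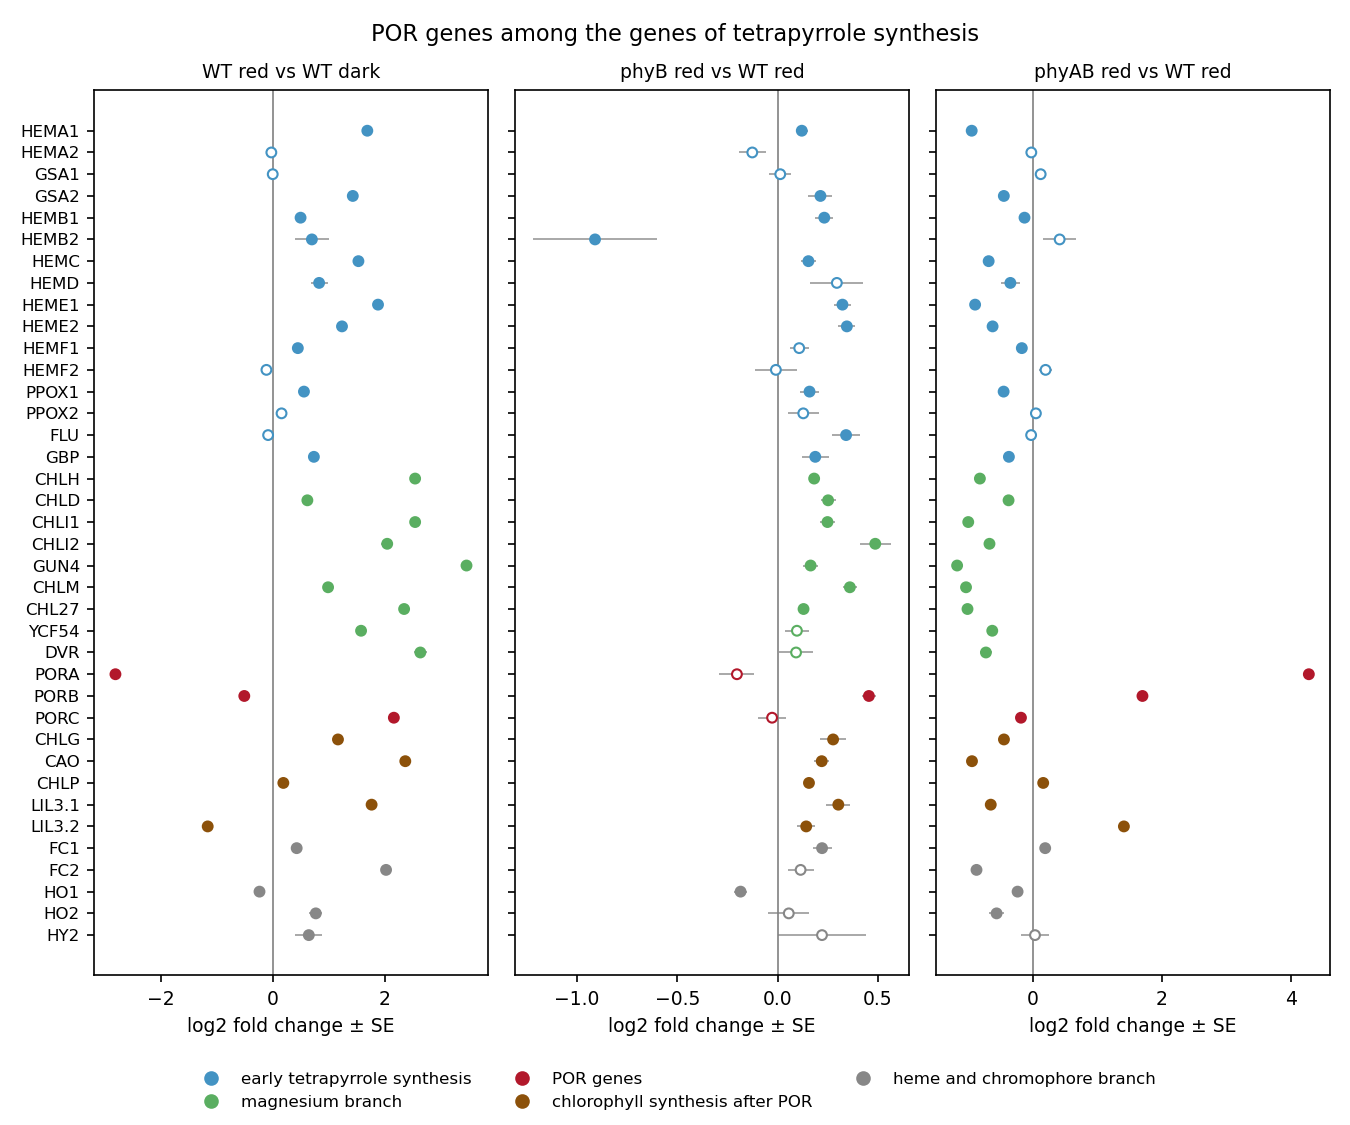
Log2 fold change ± SE of the 3 POR genes and the tested genes of early tetrapyrrole synthesis, the magnesium branch, the steps after POR and the heme branch, in 3 comparisons with separate x axes, and open points where the adjusted p was 0.05 or more. PORA (-2.81) and LIL3.2 (-1.16) lie left of 0 in WT red vs WT dark and right of it (4.28 and 1.41) in phyAB red vs WT red, where all 9 magnesium branch genes are lower.

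Genes for factors that have been reported to act on POR genes were looked at as a list of 15. PIF transcription factors restrain greening in the dark, EIN3 and EIL1 of ethylene signalling are known to bind the PORA and PORB promoters, RVE1 is a MYB-like factor reported to promote PORA, GLK1 and GLK2 promote chloroplast genes, and the GRAS factors SCL6, SCL22 and SCL27 are reported to repress PORC. In WT red against WT dark, 8 of 15 were higher and 4 lower (median log2 fold change 0.39), beside 24.1% of all tested genes called higher and 22.7% lower. The lower calls of the list were thus near the share of all genes. GLK2 changed by 1.48 ± 0.06, PIF5 by 1.33 ± 0.06, PIF4 by 1.31 ± 0.05 and GLK1 by 1.04 ± 0.14. Between phyB red and WT red, 13.1% of all tested genes were called higher and 14.0% lower. In phyB red against WT red, 6 were higher and 3 lower (median 0.10), led by SCL22 (0.39 ± 0.08), SCL6 (-0.35 ± 0.06) and PIF3 (0.31 ± 0.06), and without the first WT red library 3 were higher and 2 lower.

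In phyAB red against WT red, 1 of 15 was higher and 9 were lower (median -0.28), beside 22.3% of all tested genes called higher and 22.7% lower. The gene that was higher was PIF3, at 60.7 and 64.9 CPM against 32.0 and 32.3 CPM (log2 0.96 ± 0.06). PIF4 changed by -1.17 ± 0.05, PIF5 by -1.16 ± 0.06 and HY5, a factor that promotes light-induced genes, by -1.09 ± 0.07. EIN3 went from 396 and 397 CPM for WT dark to 323 and 321 CPM for WT red and 297 and 299 CPM for phyAB red. RVE1 stood at 33.5 and 32.7 CPM for WT dark, 46.8 and 48.5 CPM for WT red, 42.0 and 40.1 CPM for phyB red, and 31.0 and 29.9 CPM for phyAB red. The values of this list are RNA levels, and protein levels were not measured. The part of RVE1 in the PORA levels, and of the other listed factors in the POR levels, was not tested. EIN3 and RVE1 were picked out for their known link to PORA after their values had been seen.

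The prolamellar body, the envelope and the partners of POR proteins were covered by 12 genes. CURT1 proteins bend thylakoid membranes, TIC55 and PTC52 are envelope proteins reported to be linked to PORA import, and CPP1 is a chaperone-like protein of POR. In WT red, 9 of 12 were higher and 1 lower than in WT dark (median log2 fold change 0.39), beside 24.1% of all tested genes called higher and 22.7% lower. CURT1C changed by 2.35 ± 0.08, CURT1B by 1.90 ± 0.05, CURT1A by 1.78 ± 0.05 and TIC55 by 1.61 ± 0.11, and the gene that was lower was CPP1 (-0.20 ± 0.04), named after its value was seen. In phyAB red against WT red, 0 were higher and 8 lower (median -0.34), beside 22.3% of all tested genes called higher and 22.7% lower. TIC55 was at -1.17 ± 0.10, CURT1C at -0.98 ± 0.07 and CURT1B at -0.82 ± 0.04. CPP1 stood at 94.9 and 92.6 CPM for WT dark and 59.6 and 61.6 CPM for phyAB red, while PORA and PORB were higher in phyAB red. In phyB red, 3 of 12 were higher and 1 was lower than in WT red, a share near the 27.1% of all tested genes called in that comparison. The lower call was lost with DESeq2, with limma on RPKM and without the first WT red or the second phyB red library, with counts of 3 or 4 higher and 0 lower.

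Similar patterns were sought among the 15457 tested genes whose mean reached 5 CPM, by the distance between log2 CPM values centred on each gene's mean over the 8 libraries. The genes nearest to PORA were CEL2 (AT1G02800, distance 1.49), SNRK2.5 (1.88), HB52 (1.96), EXPA9 (2.04) and HEC2 (2.13). EXPA9, for a cell wall expansin, stood at 63.9 and 65.4 CPM for WT dark, 17.3 and 16.1 for WT red, 13.2 and 14.1 for phyB red, and 95.8 and 93.4 for phyAB red. EXPA9 shared the order of groups with PORA. SNRK2.5 did not, at 80.1 and 82.3 CPM for WT dark and 69.6 and 68.4 for phyAB red. HB52 did not either, at 44.7 and 44.6 CPM for WT dark and 43.6 and 42.8 for phyAB red. HEC2 was higher in phyB red (2.93 and 3.24 CPM) than in WT red (2.02 and 2.70), and for CEL2 these groups overlapped. For PORB the nearest were AT14A (AT3G28290, 0.33), AT2G41090 (0.38), EXT13 (0.38), the second AT14A gene (AT3G28300, 0.41) and GMI1 (0.47). The AT14A genes carry 1 symbol, and how reads were split between them is uncertain. The nearest to PORC were LACS2 (0.45), LTL1 (0.45), ERD9 (0.48), HSP70 (AT3G12580, 0.51) and SAHH2 (0.56). LTL1 stood at 15.1 and 17.0 CPM for WT dark and at 63.2 to 91.2 CPM in the red-treated libraries. The distance was 3.98 between PORA and PORB, 6.80 between PORA and PORC, and 3.01 between PORB and PORC, so no POR gene was among the nearest genes of another. Pearson's r over the 8 libraries was 0.84 for PORA and PORB, which share the high phyAB red libraries, and is given as a description.

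Genes beside the POR genes on the chromosome were compared too. AT5G54200, the protein-coding gene upstream of PORA on the same strand, stood at 37.3 and 39.1 CPM for WT dark, 22.8 and 24.3 for WT red, 22.8 and 24.0 for phyB red, and 34.3 and 35.5 for phyAB red. It fell in WT red (log2 -0.70 ± 0.07, adjusted p = 5.04e-15, edgeR) and was higher in phyAB red than in WT red (0.57 ± 0.07, adjusted p = 4.37e-11). AT4G27435, on the same strand 186 bases upstream of PORB, stood at 5.47 to 8.06 CPM and did not pass the threshold in WT red vs WT dark, phyB red vs WT red or phyAB red vs WT red (adjusted p = 0.205, 0.920 and 0.783 from edgeR). AT4G27450, which overlaps the end of PORB, stood at 285 and 290 CPM for WT dark, 122 and 128 for WT red, 107 and 110 for phyB red, and 127 and 134 for phyAB red. It fell in WT red (-1.20 ± 0.03) and in phyB red relative to WT red (-0.20 ± 0.04), while its change in phyAB red (0.06 ± 0.04, adjusted p = 0.235) did not pass, so it did not follow PORB in the mutants. AT1G03620, which overlaps the start of PORC, stood at 1.92 to 3.17 CPM and passed the threshold in none of these 3 comparisons (adjusted p = 0.172, 0.473 and 0.343 from edgeR).

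PORA and PORB were both high in phyAB red, and their promoters were compared for that reason. The 186 bases before each annotated start are shown from RefSeq TAIR10.1, 5′ to 3′ along the gene, with capitals for runs of at least 10 bases that the promoter windows of both genes share. They lie at chr5:21992815-21993000 on the minus strand and chr4:13725360-13725545 on the plus strand.
PORA: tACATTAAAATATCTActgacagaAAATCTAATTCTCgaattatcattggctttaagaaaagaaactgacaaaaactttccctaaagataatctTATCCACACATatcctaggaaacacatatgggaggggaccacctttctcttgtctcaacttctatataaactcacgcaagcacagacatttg
PORB: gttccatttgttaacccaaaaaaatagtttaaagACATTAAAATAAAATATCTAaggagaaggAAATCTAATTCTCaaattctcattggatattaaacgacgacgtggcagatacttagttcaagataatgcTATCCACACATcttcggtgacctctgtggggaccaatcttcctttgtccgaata
In the window from 250 bases before to 50 bases after the start, PORA and PORB shared 4 such runs of 11 to 13 bases, which overlap in part, in the same order along both promoters. Neither shared a run of that length with PORC, whose upstream window overlaps exons of AT1G03620 and is not shown. The promoters of PORA and PORB had 34.4% and 34.9% G and C. How often other pairs of promoters share such runs was not counted. The part of the shared runs in the levels of PORA and PORB was not tested.

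Each window was searched on both strands for the letters of 6 motifs known from light, clock and ethylene regulated promoters, and the share of all 27443 promoter windows of the same length that hold the motif is given beside it. The evening element core AATATCT, which RVE1-type factors are known to bind, was found in PORA 178 bases before the start and in PORB 140 and 4 bases before it, and 11.5% of promoters hold it. In both genes the upstream match lies in a shared run. The EIN3 core ATGTA was found once in PORA, 186 bases before the start, and once in PORB, 13 bases after it, and 56.4% of promoters hold it. The G-box CACGTG (7.68% of promoters) and the PIF-binding E-box CACATG (12.9%) were found in none of the 3 windows. In the longer stretch of 1000 bases before the start, the E-box (37.7% of promoters) was found in PORB, 527 bases before it, and not in PORA or PORC. The G-box (14.8%) was found in none of the longer stretches, and their matches to the other motifs are not listed here. The I-box core GATAAG (14.6%) was found in PORA, 94 bases before the start, and the CCAATC box (12.3%) at 2 places in PORB and at 1 place in PORC. No matches in these windows overlapped. For the PORC transcript that starts 128 bases further downstream, the window held 1 G-box, 1 I-box core, 1 CCAATC box and 0 evening element cores. PORC's matches thus depend on which annotated start is used. A match is a description of letters and does not show binding.

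**Figure D5:**
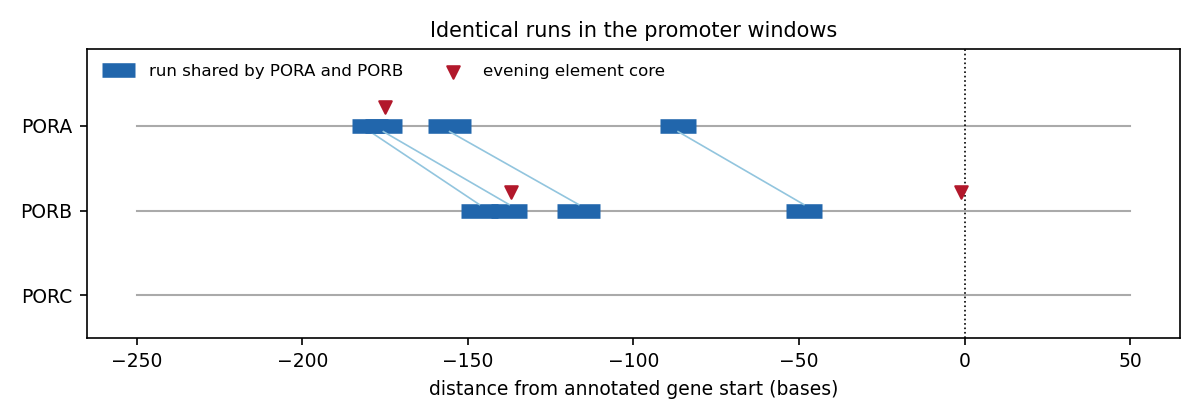
Promoter windows of PORA, PORB and PORC from 250 bases before to 50 bases after the annotated gene start (dotted line), with blue blocks for identical runs of at least 10 bases joined between PORA and PORB and triangles at evening element cores. The 4 runs keep their order in PORA and PORB, and the PORC window holds neither a run nor a core.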

How the data were processed

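Per the file headers, the authors deposited read counts and RPKM values per gene model. Counts are whole and not normalized, and dividing them by the deposited RPKM gave the same model length, within 0.05, in every library for 19105 of 19105 models checked (1441, 1554 and 1394 bases for PORA, PORB and PORC). Genome build TAIR10 comes from the submitters' processing notes. The sources used here give no aligner, counting tool or strandedness. Totals were 15926547 to 22116924 reads per library.

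Counts were tested in R 4.3.3 with edgeR 4.0.16: filterByExpr with a minimum count of 10 (20716 genes), TMM scaling, 1 model of 4 group means without a replicate term, quasi-likelihood F-tests of 6 comparisons, and Benjamini-Hochberg adjustment over all tested genes at 0.05. The script was tested on simulated counts in which all genes had the same coefficient of variation, 1.59%. For WT red vs WT dark, 60% of 1.25-fold, 86% of 1.5-fold and 98% of 2-fold changes were recovered. For phyAB red vs WT red, these shares were 64%, 84% and 100%. Small changes can thus be missed. Ratios used exact permutation tests (scipy 1.17.1). Positions, sequences and symbols come from RefSeq TAIR10.1, in which 26719 models and all 85 listed genes have an entry. Coding sequences were aligned with Biopython 1.88.

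The POR genes, the lists and the tests were chosen with earlier results of these data known. The text names all 3 POR genes, PHYA and PHYB. From each list it takes up to 4 genes with the largest change in WT red vs WT dark, and up to 3 among those called in another comparison. It also names the 5 genes nearest to each POR gene (log2 CPM with 0.1 added) and the neighbours, except where noted. Alternatives were DESeq2 size factors, no filter, DESeq2 1.42.0, only the groups compared, a replicate block, limma 3.58.1 on log2 of RPKM with 0.1 or 1 added, and leaving out each library. Intervals and SEs cover these libraries only.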

Additional observations from a re-analysis of the deposited data

How the results depend on the processing

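Of the values of the 3 POR genes under the alternatives, 185 kept their direction and side of the threshold, 7 were no longer past it, 4 came past it and 2 changed sign. PORA in phyB red vs WT red (-0.20) ranged from -0.32 to -0.10 when a library was left out and passed (adjusted p = 0.0252) only without the first WT red library. PORC in phyB red vs WT red was 0.0172 and 0.0165 with limma on RPKM with 0.1 and 1 added. PORC in phyAB red vs WT red did not pass with DESeq2 (-0.18, adjusted p = 0.152), with limma on RPKM with 0.1 (-0.12, adjusted p = 0.168) or 1 added (-0.11, adjusted p = 0.162), or without any 1 library (-0.20 to -0.16). PORC in phyAB red vs phyB red passed with DESeq2 size factors (-0.16, adjusted p = 0.0464) and with only these groups fitted (-0.16, adjusted p = 0.0413). PORB in phyB red vs WT dark ranged from -0.096 to -0.037 without a library and passed without the second WT dark library (adjusted p = 0.0386). The causes were not tested. DESeq2 called 3652 genes in phyB red vs WT red in place of 5608. With limma on RPKM, the split of higher and lower calls there became 2793 and 1984 (0.1 added) or 2895 and 1970 (1 added) in place of 2712 and 2896, and in phyAB red vs WT red 5265 and 3310 or 5372 and 3353 in place of 4619 and 4693.

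Replicate numbers did not pair the samples (correlation of deviations -0.018 to 0.011), and a replicate block left 9680, 5600, 9295, 10351, 11272 and 9966 calls in the 6 comparisons and changed no call of a POR gene. List counts under these alternatives, added after seeing the data, stayed within 1.5 times in each direction in 365 cases and moved in 31. A depth of 134 to 382 reads limits small changes of PORC in the dark and of PORA in WT red and phyB red.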
